A study of Danio rerio with 6 samples.

Results

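The 10 globin genes hbbe1.1, hbbe1.2, hbbe2, hbbe3, hbae1.1, hbae3, hbaa1, hbaa2, hbba1 and hbba2 were chosen by gene symbol as the embryonic and adult hemoglobin chains of zebrafish. Of these 10, 7 had a row among the 25645 genes of the deposited table, namely all 6 embryonic genes and hbaa1. The adult genes hbaa2, hbba1 and hbba2 were not analysed here. RNA sequencing was compared between 3 samples homozygous for pikfyve-delta8 and 3 wild-type (WT) samples. The pikfyve-delta8 fish carry a CRISPR/Cas9 allele of pikfyve, which encodes a lipid kinase of endosomes and lysosomes, and are described as lacking its phosphoinositide kinase domain. The labels give no tissue, age or number of fish behind a sample. Nothing says that samples of a genotype were raised or extracted separately, and p-values therefore speak only of the variation among these 6 libraries, part or all of which may be technical.

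Hemoglobin joins alpha chains (genes beginning with hba) to beta chains (hbb), each holding a heme that binds oxygen. In zebrafish the first circulating red cells transcribe embryonic chains, marked by an e in the symbol, and adult chains, marked by an a, take over as the fish matures. The genes lie in a major locus and a minor locus on different chromosomes, neither of which carries pikfyve. In the RefSeq annotation of the GRCz12tu assembly, used here for names and gene order, hbbe2 and hbbe3 belong to the minor locus and the other 8 genes to the major one. Further embryonic hemoglobin genes with rows in the table are hbae1.2, hbae1.3 and hbbe1.3 in the major locus and hbae4 and hbae5 in the minor one, and they are described where a result turns on them.

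Total estimated counts were 14677252 to 14949605 per sample. Levels are given as TPM, a relative abundance scaled for transcript length and for the total of the sample, which allows genes to be compared with each other. Log2 fold changes are pikfyve-delta8 minus WT ± SE from edgeR's quasi-likelihood test on the counts of all genes (two-sided, Benjamini-Hochberg adjusted over 21104 genes). Counts are also given as CPM, scaled to each library total after that total was adjusted by the TMM factors used in the test. The targeted gene, pikfyve, was read in every sample, at 61.2 to 73.6 CPM in pikfyve-delta8 and 52.1 to 56.6 CPM in WT. It was called higher in pikfyve-delta8 (log2 fold change 0.29 ± 0.09, edgeR, adjusted p = 0.0209), as were 25.1% of all genes tested. This gene total does not check the edit. The pikfyve-delta8 samples differed more among themselves than the WT samples did, with a mean chi-square per gene of 13.6 to 22.6 against 2.54 to 3.32, where counting noise alone gives 1. In whole RNA, fewer red cells and less globin RNA per red cell cannot be told apart.

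The hemoglobin genes together held about as many alpha as beta transcripts in both genotypes. Their total in pikfyve-delta8 was 49.4% of that in WT in TPM and 54.8% in CPM. By the authors' division of reads among similar copies, the values differed from copy to copy. The embryonic beta gene hbbe1.2 fell 7.84-fold, its near-namesake hbbe1.1 did not pass the test, and the scarce alpha gene hbae1.1 rose 4.10-fold. Among the 7 members 5 had enough counts to be tested, of which 1 was called lower and 1 higher. Of all genes tested, 23% were called lower and 25.1% higher, so these counts are no more than the background share. Samples of the genotypes did not overlap, in CPM, for 2 of the 5 tested members with pikfyve-delta8 lower and for 1 with it higher, beside 28.7% and 30.1% of all genes tested. The untested hbbe3 was also higher without overlap in CPM, although its lowest pikfyve-delta8 count equalled its highest WT count.

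Among the beta chains, hbbe1.2 (Gene ID 793447) stood at 196, 128 and 207 TPM in pikfyve-delta8, against 1428, 1647 and 1566 TPM in WT. Every pikfyve-delta8 sample lay far below every WT sample. The means were 177 ± 43.1 and 1547 ± 111 TPM (SD, n = 3 each), with a log2 fold change of -2.97 ± 0.16 (edgeR, adjusted p = 3.67e-06). The call held in all 18 alternative settings, with log2 fold changes of -3.16 to -2.80. Its counts were not whole numbers in any of the 6 samples, so reads were shared with similar genes and the level of this one copy is uncertain.

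Its neighbour hbbe1.1 (Gene ID 81538), another embryonic beta chain, stood at 1391, 983 and 1264 TPM in pikfyve-delta8, against 1324, 1525 and 1408 TPM in WT. The genotypes overlapped, with pikfyve-delta8 replicate 2 the lowest sample. The log2 fold change was -0.06 ± 0.12 (edgeR, adjusted p = 0.703). Counts of hbbe1.1 were also not whole in any sample.

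The minor-locus beta gene hbbe2 (Gene ID 405772), whose counts were whole in every sample, had 548, 433 and 448 TPM in pikfyve-delta8, against 494, 553 and 457 TPM in WT. The ranges overlapped almost fully, and the log2 fold change was 0.09 ± 0.12 (edgeR, adjusted p = 0.555). The sign of that small difference turned with library-size scaling and on the TPM scale, to -0.05 and -0.08. The other minor-locus beta gene, hbbe3 (Gene ID 30596), was close to the limit of detection. It had 4, 4 and 2 whole counts in pikfyve-delta8, against 1, 0 and 2 in WT. The ratio of the group totals, 10 against 3 counts, was 3.69 with an exact 95% counting interval of 0.95 to 20.9. Intervals and floors cover counting error only, and hbbe3 did not enter the fit. On the log2(TPM + 1) scale with no filter it was called higher, as were 13.9% of all genes there.

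Among the alpha chains, hbae1.1 (Gene ID 30597) had 176, 96.4 and 109 TPM in pikfyve-delta8, against 58.2, 14.8 and 32.9 TPM in WT. All 3 pikfyve-delta8 samples lay above all 3 WT samples, and the samples within each genotype were spread widely. The log2 fold change was 2.04 ± 0.49 (edgeR, adjusted p = 0.0168). The call was lost without pikfyve-delta8 replicate 3 (adjusted p = 0.0619) and without WT replicate 3 (adjusted p = 0.0612), while the 18 alternatives gave adjusted p-values between 0.000145 and 0.0619. None of its counts was whole.

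The alpha gene hbae3 (Gene ID 30601), at the far end of the major locus, had whole counts and stood at 995, 566 and 942 TPM in pikfyve-delta8, against 1187, 1208 and 1179.8 TPM in WT. Each pikfyve-delta8 sample was below each WT sample, replicate 2 by the widest margin, while the WT samples were close together. The log2 fold change was -0.35 ± 0.18 (edgeR, adjusted p = 0.133). It was called lower by DESeq2 (adjusted p = 0.0486), on both filtered TPM scales (adjusted p = 0.0357 and 0.0375) and without pikfyve-delta8 replicate 1 (adjusted p = 0.0296). Adjusted p was 0.0296 to 0.264 across the 18 alternatives. Those settings called 20.3% (DESeq2), 33.8% and 33.5% (TPM) and 22.1% (without that sample) of all genes lower. Without pikfyve-delta8 replicate 2 its log2 fold change was -0.16.

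The adult alpha gene hbaa1 (Gene ID 30507) was hardly detected in either genotype. It had 1, 0 and 1 counts in pikfyve-delta8, against 0, 1 and 3 in WT, all whole. The detection floor, taken as 3 counts in a library, was worth 0.205 to 0.218 CPM for pikfyve-delta8 and 0.191 to 0.194 CPM for WT, and no sample exceeded it, so no fold change is given. A second adult-type alpha gene, si:ch211-5k11.8, an older symbol of which is hbaa1.2, had no count in pikfyve-delta8 and 1 count in WT, in replicate 1. It was singled out after its values were seen. As a share of the TPM of the 7 members, hbaa1 held 0.00756%, 0% and 0.00875% in pikfyve-delta8, against 0%, 0.00505% and 0.0166% in WT. The genotypes overlapped. With single samples left out the mean share ran from 0.00378% to 0.00815% in pikfyve-delta8 and from 0.00253% to 0.0108% in WT, lowest without WT replicate 3. This share rests on a single adult gene, so it describes hbaa1 and not the adult chains together.

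**Figure D1:**
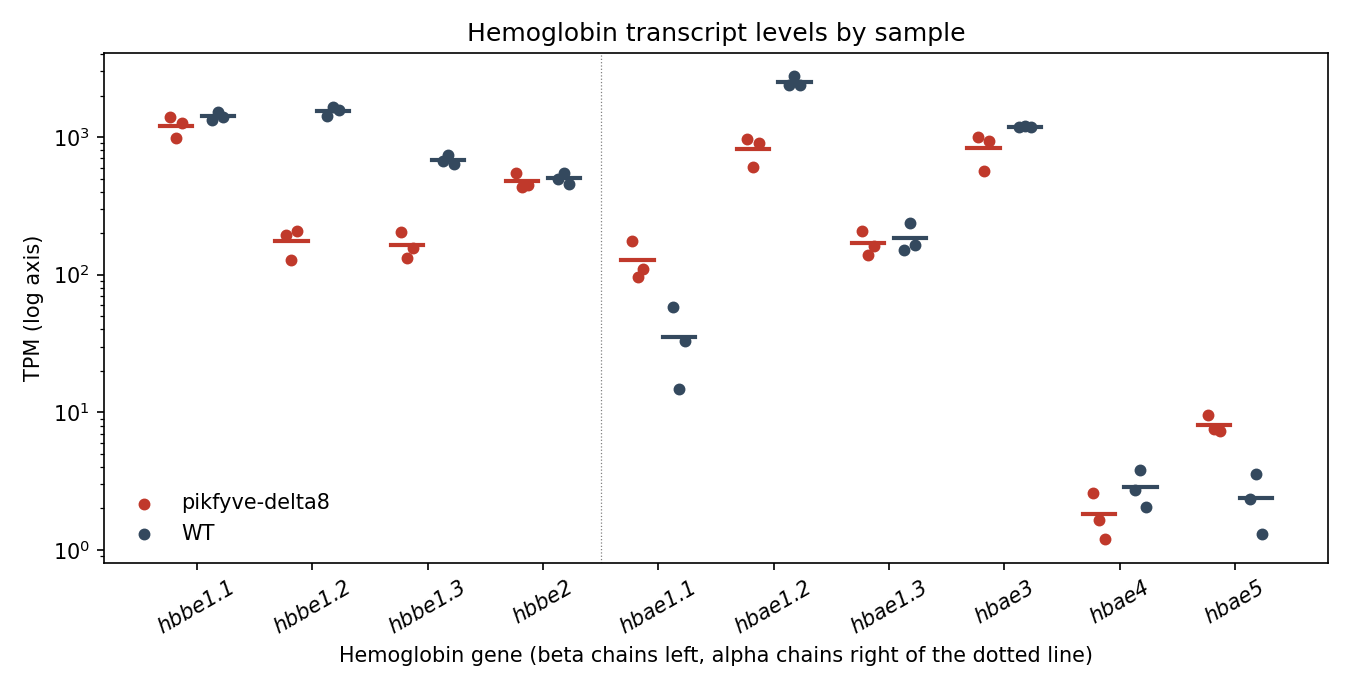
TPM (log axis) of the 10 hemoglobin genes with enough counts to be tested, beta chains on the left and alpha chains on the right. Points are the 3 pikfyve-delta8 samples (red) and the 3 WT samples (dark grey-blue), and bars are means. The genotypes separate for hbbe1.2, hbbe1.3, hbae1.2 and hbae3 with pikfyve-delta8 lower, and for hbae1.1 and hbae5 with pikfyve-delta8 higher.

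Reads shared between copies decide how these values can be read. The major locus holds 3 copies each of hbae1 and hbbe1, and the counts of all 6 copies were not whole in any sample. Summed over the 3 hbae1 copies, or over the 3 hbbe1 copies, the counts came within 0.01 of a whole number in every sample. Reads were therefore divided within each set of copies, and the sums do not depend on how they were divided, apart from the small difference in length that enters TPM.

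The hbae1 copies together had 1345, 842 and 1175 TPM in pikfyve-delta8, against 2608, 3027 and 2593 TPM in WT. The hbbe1 copies together had 1790.2, 1242 and 1628 TPM in pikfyve-delta8, against 3427, 3917 and 3610.0 TPM in WT. In both sets every pikfyve-delta8 sample lay below every WT sample. The hbae1 sum in pikfyve-delta8, at 1121 ± 256 TPM, was 40.9% of the 2742 ± 246 TPM in WT (SD, n = 3 each), and the hbbe1 sum, at 1554 ± 282 TPM, was 42.5% of 3651 ± 248 TPM. In CPM, which uses the scaling of the gene-wise test, these shares were 45.5% and 47.4%. No p is given for sums of chosen genes.

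Within the hbbe1 set the balance differed between genotypes. The hbbe1.2 copy held 10.9%, 10.3% and 12.7% of the hbbe1 TPM in pikfyve-delta8, against 41.7%, 42.0% and 43.4% in WT. The hbbe1.1 copy held 77.7%, 79.2% and 77.6% in pikfyve-delta8, against 38.6%, 38.9% and 39.0% in WT. So hbbe1.2 was far below hbbe1.1 in pikfyve-delta8 and about level with it in WT, with ratios of 0.141, 0.130 and 0.164 in pikfyve-delta8 and 1.08, 1.08 and 1.11 in WT. The third copy, hbbe1.3, itself fell, at 203, 131 and 158 TPM in pikfyve-delta8, against 675, 746 and 636 TPM in WT (log2 fold change -1.89 ± 0.16, edgeR, adjusted p = 4.61e-05).

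Within the hbae1 set one copy dominated in both genotypes. The hbae1.2 copy stood at 962, 607 and 904 TPM in pikfyve-delta8, against 2398, 2774 and 2395 TPM in WT, and it fell with a log2 fold change of -1.45 ± 0.16 (edgeR, adjusted p = 0.000154). Its share of the hbae1 TPM was 71.5%, 72.0% and 77.0% in pikfyve-delta8, against 92.0%, 91.6% and 92.4% in WT. The hbae1.1 copy held 13.1%, 11.4% and 9.30% in pikfyve-delta8, against 2.23%, 0.490% and 1.27% in WT. Copy hbae1.3 overlapped between genotypes, at 207, 139 and 161 TPM in pikfyve-delta8, against 151, 238 and 165 TPM in WT (log2 fold change 0.03 ± 0.22, edgeR, adjusted p = 0.914). These differences in balance rest on the authors' division of shared reads and were not tested.

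**Figure D2:**
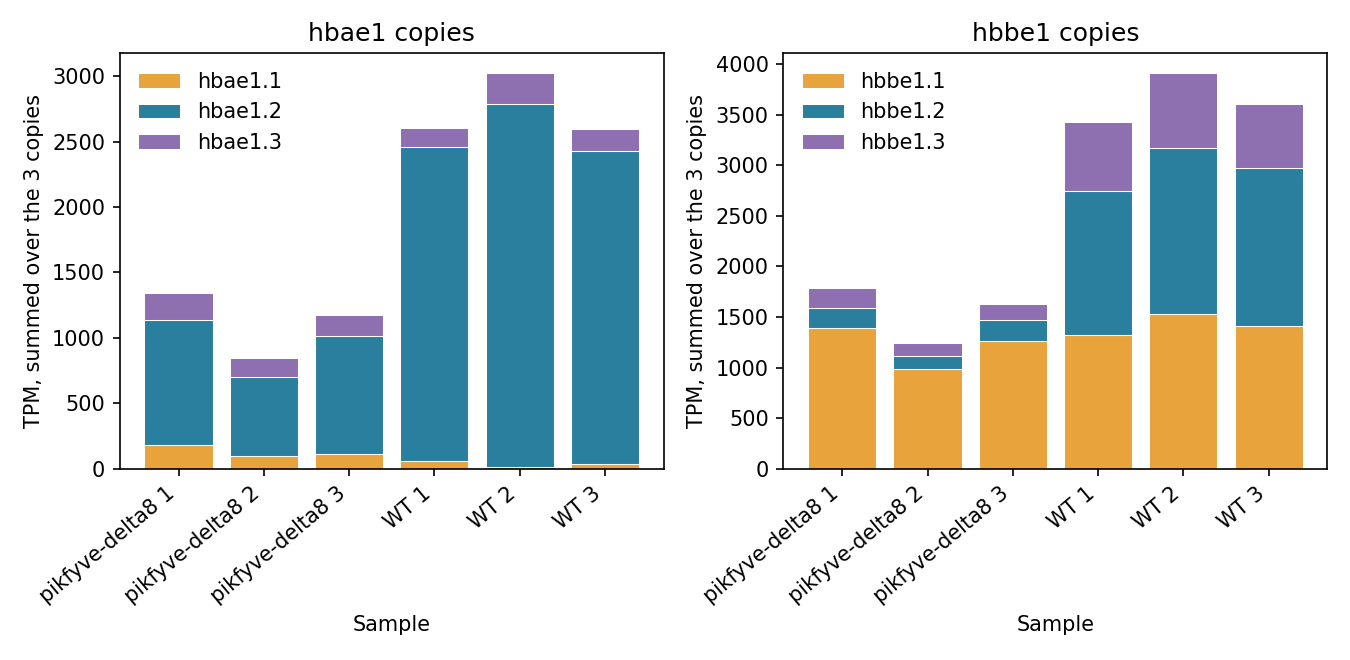
Summed TPM of the 3 hbae1 copies (left) and the 3 hbbe1 copies (right) in each sample, pikfyve-delta8 first, with each copy as one colour of a stacked bar. Totals are lower in each pikfyve-delta8 sample than in each WT sample, and the hbae1.2 segment loses the most height. In the edgeR test, which does not use TPM, hbbe1.2 is lower by the largest fold (7.84). The hbbe1.1 segment is of similar height in both genotypes.

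The copies called lower are neighbours, and their single levels, like the sums over neighbours given here, depend on how the authors divided the shared reads. In the RefSeq order of the major locus hbbe1.1 and hbae1.1 come first, then hbbe1.2, hbae1.2 and hbbe1.3, then hbae1.3 and hbae3. The middle 3 genes summed to 1165 ± 263 TPM in pikfyve-delta8 and 4755 ± 360 TPM in WT, which is 24.5% of the WT mean. The pair before them summed to 1340 ± 246 TPM in pikfyve-delta8 and 1454 ± 79.4 TPM in WT, or 92.2%, with overlapping samples. The pair after them summed to 1004 ± 263 TPM in pikfyve-delta8 and 1376 ± 60.2 TPM in WT, or 72.9% (SD, n = 3 each). Samples of that last pair did not overlap in TPM but did in CPM. In CPM the middle 3 genes stood at 27.1% of WT, the pair before them at 102% and the pair after them at 81.5%. This grouping was made after the values were seen, so it is a description. Of the nearest genes outside the globins, nprl3 on one side did not pass the test (log2 fold change 0.23 ± 0.12, edgeR, adjusted p = 0.150), and kank2 on the other side rose (1.36 ± 0.43, adjusted p = 0.0323).

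The minor locus was low and similar in total. Its 4 genes hbae4, hbbe3, hbbe2 and hbae5 summed to 562, 444 and 457 TPM in pikfyve-delta8, against 499.7, 560.2 and 461 TPM in WT. The genotypes overlapped, at 488 ± 64.3 and 507 ± 49.8 TPM (SD, n = 3 each). Nearly all of this was hbbe2. The alpha gene hbae5 rose, with 9.49, 7.53 and 7.30 TPM in pikfyve-delta8, against at most 3.53 TPM in WT (log2 fold change 1.91 ± 0.35, edgeR, adjusted p = 0.00167). Its counts were whole, and this call held in all 18 alternatives. The alpha gene hbae4 had 2.60, 1.64 and 1.19 TPM in pikfyve-delta8, against 2.70, 3.79 and 2.03 TPM in WT, and did not pass the test (-0.48 ± 0.40, adjusted p = 0.354). With the major locus lower, the minor locus made up 12.0%, 14.35% and 10.9% of hemoglobin TPM in pikfyve-delta8, against 6.47%, 6.43% and 5.88% in WT.

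**Figure D3:**
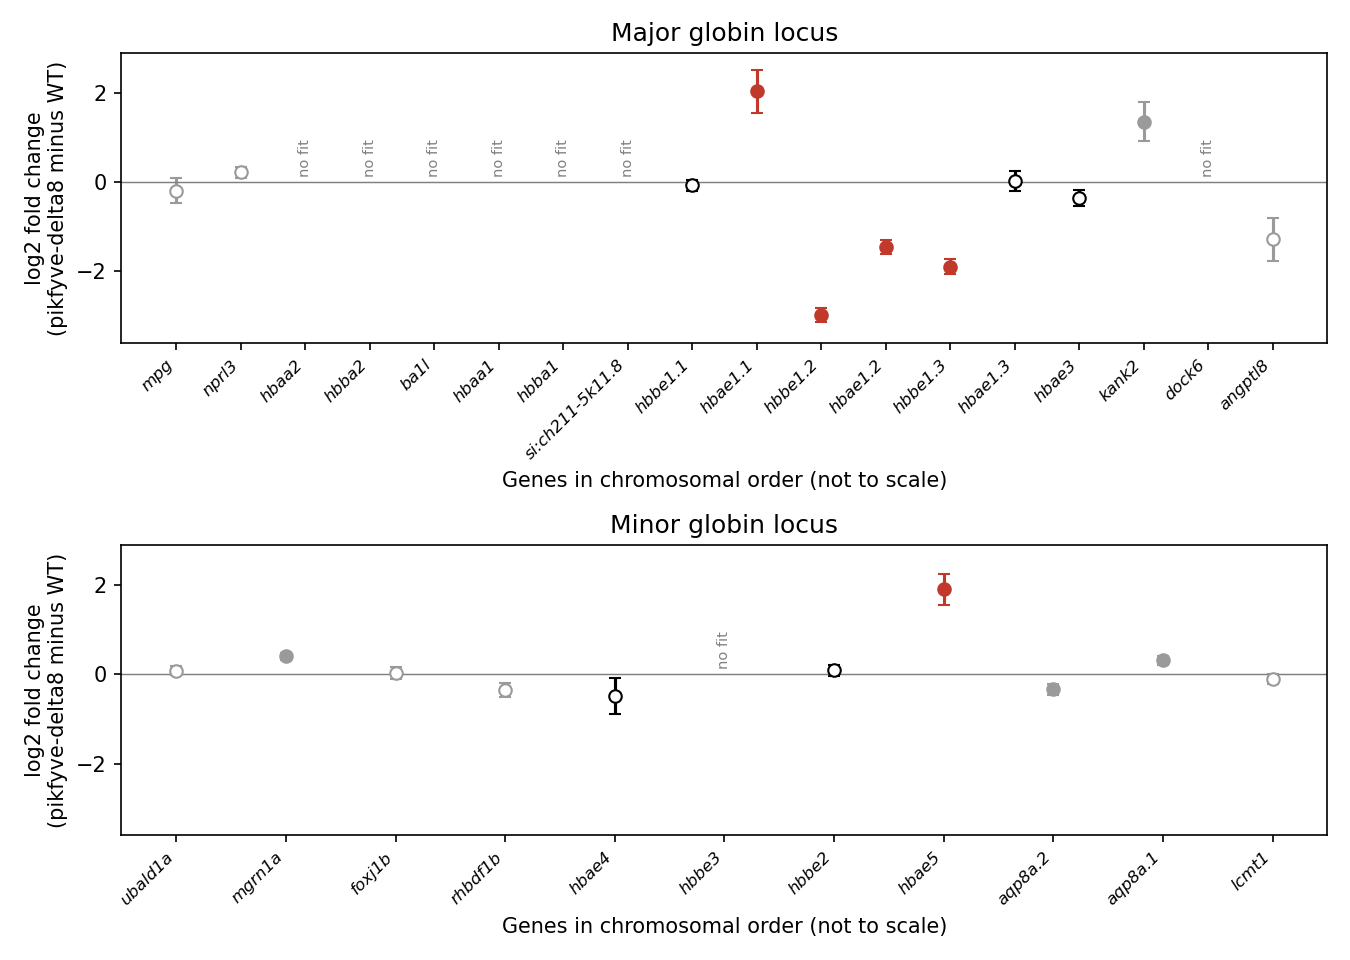
Log2 fold changes (pikfyve-delta8 minus WT, bars are ± SE) of genes in their order along the major and minor globin loci, not to scale. Hemoglobin genes are red where the adjusted p is under 0.05 and black where it is not, flanking genes are grey, filled symbols passed the test, and "no fit" marks genes with too few counts or not analysed here. The 3 adjacent genes hbbe1.2, hbae1.2 and hbbe1.3 lie between -2.97 and -1.45.

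Over all 13 hemoglobin genes with a row, the total was 4692, 3095 and 4204 TPM in pikfyve-delta8, against 7721, 8712 and 7845 TPM in WT. Every pikfyve-delta8 sample was below every WT sample, and replicate 2 was the lowest. The means were 3997 ± 818 and 8093 ± 540 TPM (SD, n = 3 each), and in CPM the pikfyve-delta8 total was 54.8% of WT. As a share of all estimated counts the 13 genes held 0.125%, 0.0816% and 0.109% in pikfyve-delta8, against 0.201%, 0.2305% and 0.203% in WT. The 7 members alone held 0.0744% ± 0.0151 in pikfyve-delta8 and 0.124% ± 0.00734 in WT (SD, n = 3 each).

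The alpha and beta sums were lower by similar amounts, at 49.9% and 48.9% of their WT means in TPM. Summed over all 13 genes, the ratio of alpha to beta TPM was 1.01, 0.846 and 1.02 in pikfyve-delta8, against 0.969, 0.949 and 0.928 in WT. The genotypes overlapped around 1. Over the 7 members the ratio was 0.549, 0.429 and 0.548 in pikfyve-delta8, against 0.383, 0.328 and 0.354 in WT, without overlap. That smaller set leaves out hbae1.2, the most abundant alpha gene in WT, so its ratio does not describe the whole of the chains. The direction turned when members whose counts are not whole were left out, at 1.74 in pikfyve-delta8 and 2.39 in WT.

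The order of levels differed between the genotypes. In pikfyve-delta8 the order by mean TPM was hbbe1.1, hbae3, hbae1.2, hbbe2, hbbe1.2, hbae1.3, hbbe1.3, hbae1.1, hbae5, hbae4, hbbe3 and hbaa1. Samples of hbbe1.1 overlapped with those of hbae3, and hbae3 with hbae1.2. Further down, hbbe1.2 overlapped with hbae1.3, hbae1.3 with hbbe1.3, hbbe1.3 with hbae1.1, and hbae4 with hbbe3. In WT the order was hbae1.2, hbbe1.2, hbbe1.1, hbae3, hbbe1.3, hbbe2, hbae1.3, hbae1.1, hbae4, hbae5, hbbe3 and hbaa1. There hbbe1.2 overlapped with hbbe1.1, hbae4 with hbae5, and hbbe3 with hbaa1. Thus hbbe1.2 was among the genes at 96.4 to 207 TPM in pikfyve-delta8, and it stood second among the WT levels.

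The genes closest to hbbe1.1, the member with the highest mean TPM, were sought by the root mean square distance between log2 CPM profiles centred over the 6 samples, among 14082 genes. They were olfml3a (distance 0.0119), bscl2 (0.0428), smim20 (0.0467), rchy1 (0.0480) and zic4 (0.0512). The nearest, olfml3a, had 6.17, 4.22 and 5.14 CPM in pikfyve-delta8, against 4.89, 6.09 and 5.32 CPM in WT. The profile they share is low in pikfyve-delta8 replicate 2 and shows little difference between genotypes. Since counts of hbbe1.1 were not whole in any sample, its profile depends on how the authors divided the shared reads. With 6 samples and so many candidates, such closeness is a description. The adult gene hbaa1 had too few counts for such a comparison.

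Other red cell genes set the scale for the globins. Of 11 tested erythrocyte markers, 9 fell (81.8%) and 1 rose (9.09%), beside 23% and 25.1% of all genes. Their median log2 fold change was -0.75, beside a median of -0.21 for the 10 tested hemoglobin genes and 0.0039 for all genes. Each of these markers is also a member of the heme synthesis, membrane and enzyme, or transcription factor list below, so those counts include the same calls. A median gives scarce and abundant genes the same weight, so it does not rank the totals. The summed CPM of the markers was 265 to 299.8 in pikfyve-delta8 and 407.5 to 441 in WT. That of the 13 hemoglobin genes was 884.8 to 1334 in pikfyve-delta8 and 1882 to 2232 in WT, with a mean at 54.8% of WT. The anion exchanger gene slc4a1a averaged 16.3 ± 4.24 CPM in pikfyve-delta8 and 84.2 ± 11.1 CPM in WT (SD, n = 3 each), with a log2 fold change of -2.37 ± 0.18. The transferrin receptor gene tfr1a, which serves iron uptake for heme, fell by 0.75 on the log2 scale. The other transferrin receptor gene, tfr1b, which is not among these markers, rose by 0.78 ± 0.10 (edgeR, adjusted p = 0.000169). It averaged 89.2 CPM in pikfyve-delta8 and 51.9 CPM in WT, and tfr1a 26.6 and 44.7 CPM. The Rh glycoprotein gene rhag did not pass the test (0.10 ± 0.08, edgeR, adjusted p = 0.339). The marker that rose was nt5c2l1, a nucleotidase gene (0.46 ± 0.14, edgeR, adjusted p = 0.0178). That call was lost without pikfyve-delta8 replicate 2 (adjusted p = 0.0520), without WT replicate 1, 2 or 3 (adjusted p = 0.0684, 0.0541 and 0.0610), with library-size scaling (adjusted p = 0.0591) and on the TPM scales (adjusted p = 0.0779 to 0.0990).

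Heme synthesis genes went both ways. Of 25 tested, 9 fell (36%) and 8 rose (32%), with a median of 0.05, beside 23% and 25.1% of all genes. The porphyrin pathway enzyme genes hmbsb and alad fell by 1.29 and 1.07 on the log2 scale. The gene hmbsa, the other of its kind beside hmbsb, rose by 0.37 ± 0.11 (edgeR, adjusted p = 0.018). The gene alas1, the first heme enzyme of tissues outside red cells, rose by 1.70 ± 0.11 on the log2 scale, and the mitochondrial carrier gene slc25a38a rose by 2.46 ± 0.19. A further pair of genes was picked for their red cell role after their values were seen. The red cell form of the first enzyme, alas2, fell at 16.3 ± 2.16 CPM in pikfyve-delta8 and 23.0 ± 1.77 CPM in WT (SD, n = 3 each). The ferrochelatase gene fech, which inserts iron into heme, had a log2 fold change of -1.58 ± 0.18.

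Of 27 tested genes of the red cell membrane and enzymes, 10 fell (37%) and 6 rose (22.2%), with a median of -0.17. Of all genes, 23% were called lower and 25.1% higher. The spectrin gene sptb fell by 0.57 on the log2 scale, while the water channel gene aqp1a.1 and the mitochondrial protein gene tspo rose by 0.77 ± 0.09 and 0.45 ± 0.08. Those 6 risers became 2 to 3 with library-size scaling and on the TPM scales, and 3 without WT replicate 1 or WT replicate 3. Of 27 tested erythroid transcription factor genes and regulators, 7 fell and 9 rose, with a median of -0.24, and these shares (25.9% and 33.3%) lay near the 23% and 25.1% of all genes. The master regulator gene gata1a averaged 1.45 ± 0.504 CPM in pikfyve-delta8 and 4.21 ± 0.642 CPM in WT (SD, n = 3 each), with a log2 fold change of -1.54 ± 0.27 (edgeR, adjusted p = 0.00116). The cofactor gene ldb1a fell by 0.47 on the log2 scale. The widely expressed genes klf6a and hbp1 rose by 0.94 ± 0.08 and 0.97 ± 0.09. The gene klf1, known in mammals as an activator of beta globin and named after its values were seen, had a log2 fold change of -1.24 ± 0.26 (edgeR, adjusted p = 0.00341). Other regulators of this list rose, among them runx1 by 1.16 ± 0.22, nfe2 by 0.68 ± 0.22 and lmo2 by 0.53 ± 0.14 (edgeR, adjusted p = 0.0018, 0.0266 and 0.012). The gene klf17 did not pass the test (-0.295 ± 0.156, edgeR, adjusted p = 0.143).

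Of 16 tested genes that clear hemoglobin and heme, 4 fell and 7 rose, with a median of 0.03. The share that fell, 25%, was near the 23% of all genes, and the share that rose was 43.8%, beside 25.1%. The hemopexin gene hpxa, whose protein binds free heme, fell by 3.37 on the log2 scale, and the iron hormone gene hamp rose by 1.54 ± 0.12. Of the ferritin heavy chain genes, fth1a rose by 0.33 ± 0.07 and fth1b fell by 0.32 on the log2 scale. Counts of fth1b were not whole, and its call was lost without WT replicate 2 (adjusted p = 0.0804). Without single samples, the 4 that fell became 2 (pikfyve-delta8 replicate 1, WT replicate 1 or WT replicate 3) or 1 (WT replicate 2), and the 7 that rose became 3 or 4 (WT replicate 1, WT replicate 3 or pikfyve-delta8 replicate 3).

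Markers of other blood and vessel cells were read against the same background of 23% of all genes lower and 25.1% higher. Of 13 tested genes listed as neutrophil markers, cpa5 among them, 12 rose and 0 fell (median 1.74). Their summed CPM was 3009 to 3637 in pikfyve-delta8 and 1737 to 1886 in WT. Of 14 blood endothelium markers 12 rose and 0 fell (median 0.72, summed CPM 420.4 to 451 in pikfyve-delta8 and 265 to 275 in WT). Of 7 thrombocyte markers 3 rose and 0 fell (median 0.32, summed CPM 1293 to 2157 in pikfyve-delta8 and 680.3 to 726 in WT), and 1 rose without WT replicate 1, with library-size scaling and on the TPM scales. The 3 that rose were fn1b, thbs1b and f13a1b. The markers itga2b, gp1bb, itgb3b and tbxas1 did not pass the test (edgeR, adjusted p = 0.079, 0.628, 0.678 and 0.387). The markers mpl and gp9 had too few counts to be tested. Of 10 macrophage markers 3 rose and 3 fell (median 0.20, summed CPM 1603 to 1830.0 in pikfyve-delta8 and 1154 to 1244 in WT), and 5 rose without pikfyve-delta8 replicate 1. The macrophage shares, 30% each way, were near the background. Single genes made up most of the neutrophil, thrombocyte and macrophage sums, so these sums do not give the levels of the cells. For the neutrophil list this was cpa5, at 2340 to 2450 CPM in pikfyve-delta8 and 1630 to 1770 CPM in WT. In WT the listed genes mpx and lyz stood at 8.97 to 10.4 and 10.9 to 12.5 CPM. Whether cpa5 marks neutrophils in these samples was not tested. For thrombocytes it was fn1b (947 to 1780 and 393 to 446 CPM), and for macrophages apoeb (1520 to 1770 and 1090 to 1190 CPM). Among 21 tested genes listed as hypoxia targets 13 rose and 1 fell, with a median of 0.67. That list also holds hif1aa, hif1ab, epas1a, epas1b and vhl, which are regulators of the hypoxia response. Of these regulators, hif1aa, hif1ab and vhl were among the genes that rose. The targets ldha, pdk1, bnip3, ca9 and epob did not pass the test. None of the listed markers with a row was at 0 in every sample, and the part of these cells in the globin levels was not tested.

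**Figure D4:**
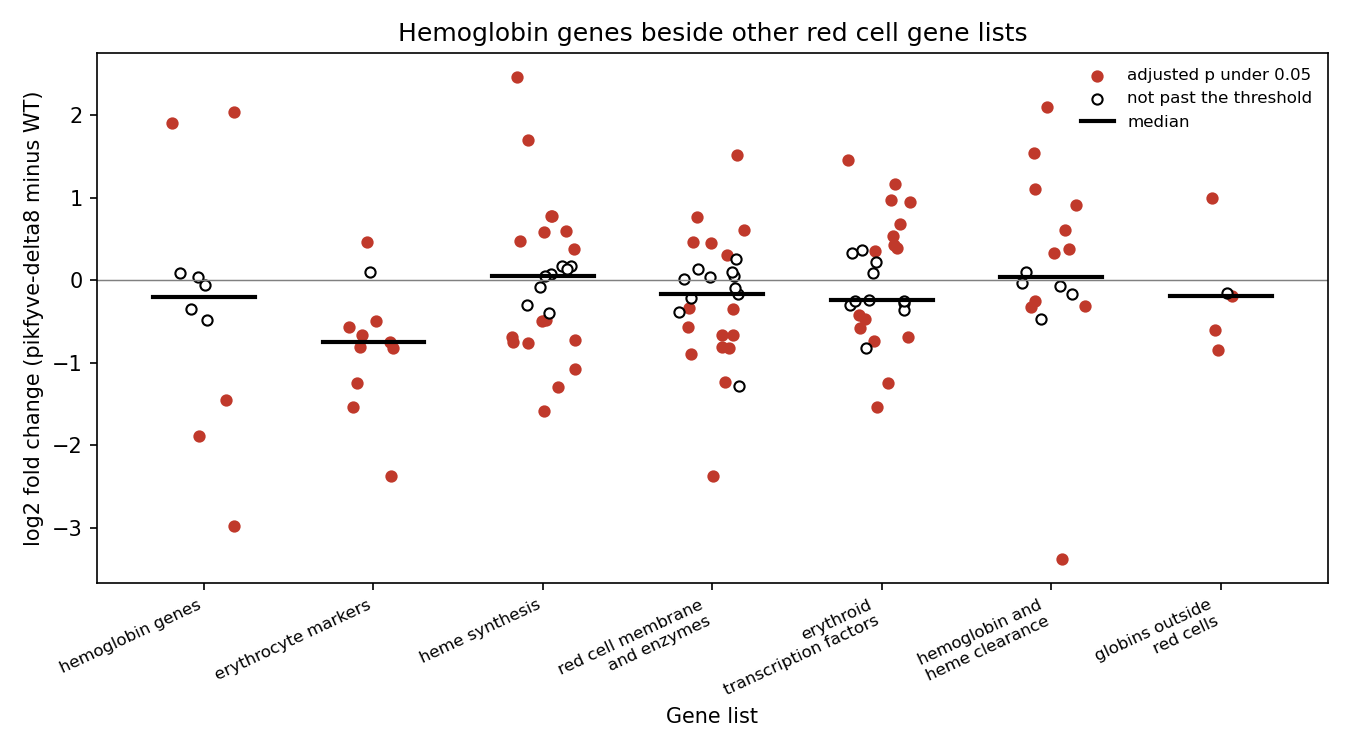
Log2 fold changes (pikfyve-delta8 minus WT) of the tested members of each gene list, with one point per gene, red where the adjusted p is under 0.05, and a black bar at the median. The hemoglobin genes range from -2.97 to 2.04, and 9 of 11 erythrocyte markers lie below 0 in red. Each erythrocyte marker is drawn again in the heme synthesis, membrane and enzyme, or transcription factor list.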

How the data were processed

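Per the labels' protocols, libraries were made from mRNA isolated out of column-purified RNA, and their cDNA was circularized. RSEM 1.3.1, Bowtie2, the GRCz11 build and DESeq2 1.4.5 appear in the submitters' processing notes, without order or settings. Whether counting used strand is not stated. The deposited table holds estimated counts, which are not whole in 10.7% to 11.6% of values (tolerance 0.005), with TPM and FPKM computed by the authors per the file headers. The deposited FPKM served 1 alternative.

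Counts were rounded, filtered with filterByExpr, scaled by TMM and tested with edgeR 4.0.16 (R 4.3.3, robust quasi-likelihood, genotype alone, adjusted p under 0.05). SE is the log2 fold change divided by the square root of F. Alternatives were other scalings and filters, a block for replicate number, leaving out single samples, DESeq2 1.42.0, limma 3.58.1 (voom, and log2(TPM + 1) or log2(TPM + 0.1) with a TPM of at least 1 in 3 samples) and, added after the data were seen, the same settings for the gene lists. The fits were tested on simulated data. Every pair of samples differed by more than counting noise. Figures used matplotlib 3.10.9.

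The members and lists were chosen with earlier results of these data known. All members are named. Of each list of red cell roles, up to 2 called genes with the smallest p in each direction are named. The genes tfr1b, hmbsa, hpxb and cygb1 were added beside a named gene of the same kind after their values were seen. The regulator genes runx1, nfe2, lmo2 and klf17 were added beside klf1, likewise after their values were seen. List genes were matched by symbol, or by the gene ID of the current RefSeq symbol, as for hbae4.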

Additional observations from a re-analysis of the deposited data

How the results depend on the processing

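Every call for hbbe1.2, hbbe1.3, hbae1.2 and hbae5 kept its direction and its side of the threshold in the 18 alternatives. One member was called lower as reported and 2 with DESeq2, log2(TPM + 1) and log2(TPM + 0.1), the second being hbae3, and the count ran from 1 to 2 with single samples left out. One was called higher, 2 with log2(TPM + 1) and no filter (hbbe3 in addition), and 0 to 1 with single samples left out. With library size alone the median gene of the table stood at -0.14 (log2). On the filtered log2(TPM + 1) and log2(TPM + 0.1) scales it stood at -0.141 and -0.164.

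Uncalled genes changed sign as follows. The value for hbae1.3 was -0.0289 with upper-quartile factors, -0.11 with library size alone, -0.12 on each TPM scale, -0.16 without pikfyve-delta8 replicate 1, and -0.11 and -0.05 without WT replicates 1 and 3. That for hbbe2 was -0.0507 with library size alone, -0.077, -0.0772 and -0.077 on the TPM scales, and -0.0417 to 0.191 over single samples left out, the lowest without pikfyve-delta8 replicate 1. That for hbbe1.1 was -0.2 to 0.0471 over single samples left out, the highest without pikfyve-delta8 replicate 2, and 0.01 without WT replicate 2.

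Without members whose counts are not whole, the adult share of TPM was 0.0116% in pikfyve-delta8 and 0.0204% in WT, and the alpha to beta ratio turned its direction, to 1.74 in pikfyve-delta8 and 2.39 in WT, since fewer genes remain. As a share of TPM the members held 0.283% in pikfyve-delta8 and 0.469% in WT.

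List counts moved by over 1.5 times as follows. With library size alone, 3 red cell membrane and enzyme genes, 5 erythroid factors, 1 thrombocyte marker and 0 erythrocyte markers were higher, and 2 hypoxia targets lower, as with upper-quartile factors. With log2(TPM + 1), with and without filter, and log2(TPM + 0.1), 11 erythroid factors and 2 hypoxia targets were lower, and 5 erythroid factors, 4 clearance genes, 1 thrombocyte marker and 0 erythrocyte markers were higher. Red cell membrane and enzyme genes were then higher in 2 with the filter and 3 without, where 5 macrophage markers were lower. With single samples left out, higher counts ran from 0 to 2 for erythrocyte markers, 3 to 7 for clearance genes, 3 to 8 for red cell membrane and enzyme genes, 1 to 3 for thrombocyte markers and 3 to 5 for macrophage markers, and lower counts from 1 to 4 for clearance genes and 1 to 2 for hypoxia targets. The cause was not tested.

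With the replicate block 1 member was lower and 1 higher, with hbbe1.2 at -2.99 and hbae1.1 at 2.11 (edgeR, adjusted p = 2.63e-05 and 0.000145). Deviations of same-numbered samples correlated at -0.079, 0.058 and -0.049 across genes, and those of differently numbered samples at -0.11 to 0.15. With so few samples these values cannot settle whether the numbers pair the samples, and the labels state no pairing. Depth limits hbbe3 and hbaa1, which lie near the floor of 3 counts.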

Other observations

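Globins that work outside red cells moved in both directions. Of 5 tested, 3 fell (60%) and 1 rose (20%), beside 23% and 25.1% of all genes. The 3 that fell became 2 with no filter, with the replicate block and with DESeq2, and were 2 to 3 with single samples left out. The myoglobin gene mb, the oxygen store of muscle, averaged 23.4 ± 5.62 CPM in pikfyve-delta8 and 11.7 ± 0.767 CPM in WT (SD, n = 3 each), a log2 fold change of 1.00 ± 0.16 (edgeR, adjusted p = 0.000951). The neuroglobin gene ngb, transcribed in neurons, averaged 12.9 ± 2.69 CPM in pikfyve-delta8 and 19.5 ± 0.957 CPM in WT (log2 fold change -0.60 ± 0.14, edgeR, adjusted p = 0.00666). The cytoglobin gene cygb2 averaged 6.17 ± 1.44 CPM in pikfyve-delta8 and 11.1 ± 0.747 CPM in WT (-0.84 ± 0.17, adjusted p = 0.00253). The other cytoglobin gene, cygb1, averaged 88.6 ± 2.95 CPM in pikfyve-delta8 and 101 ± 3.44 CPM in WT (-0.19 ± 0.07, edgeR, adjusted p = 0.0436). Its difference was small, and its counts were not whole in any sample. For mb, ngb, cygb1 and cygb2 the genotypes did not overlap, as was so for 28.7% (lower) and 30.1% (higher) of all genes tested.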
